A study of Homo sapiens with 20 samples.

Results

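The data described here are the first hour of transcription block in pancreatic progenitors (PPs) that lack the m6A demethylase ALKBH5. They comprise 4 RNA-seq libraries of A5-KO PPs, 2 collected without drug (0 h, the control) and 2 collected after 1 h in actinomycin D (Act D), out of 20 libraries in the series and 16 from PPs. All 4 came from the human embryonic stem cell line MEL1, which carries a green fluorescent protein reporter in one insulin allele; *ALKBH5* was disrupted with CRISPR-Cpf1, and the cells were differentiated in steps to PPs. Act D was used at 1 μg per ml. The study describes more than one knockout line, and the labels do not say which of them gave these libraries. The genes described are those with a mean CPM (a gene's reads scaled to a fixed library total) of at least 5 over the 4 libraries, 10750 of the 60623 genes listed. The mean CPM of the gene just inside this limit was 5.01 and that of the gene just outside was 5.00, and the 10750 genes held between 98.9% and 99.1% of each library's total. WT PPs (the unedited line) at the same times, 2 libraries each, served for comparison.

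Act D binds DNA and stops RNA polymerases, so that after its addition the amount of each mRNA falls at a pace set by how fast that mRNA is degraded. Short-lived mRNAs typically encode transcription factors, signalling feedback inhibitors and other regulators whose levels need to change quickly. Many of them carry AU-rich elements, repeats of the pentamer AUUUA in the 3′ untranslated region (UTR) that decay factors recognise. Long-lived mRNAs typically encode ribosomal proteins, metabolic enzymes and secreted proteins. m6A, the methyl mark that ALKBH5 removes, is another signal that readers such as YTHDF2 couple to decay. CPM gives each mRNA's share of the library and not its amount: in a pool that shrinks, an mRNA that decays more slowly than the rest gains share without new synthesis. The authors removed the spiked-in control RNAs before depositing these values, so a gene higher at 1 h had a higher share of the RNA sequenced, and gain of share and synthesis cannot be told apart.

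The CPM values of the 4 libraries corresponded to between 32356826 and 34764626 whole reads. The targeted gene was low throughout: *ALKBH5* (chromosome 17, 18183078 to 18209954, plus strand of GRCh38) was at 19.1 and 18.8 CPM at 0 h and 11.1 and 10.1 CPM at 1 h in A5-KO PPs, against 149 and 172 CPM at 0 h in WT PPs. Its remaining transcript fell in the first hour (log2 change -0.84 ± 0.18 (s.e.), limma adjusted *p* = 9.5e-05), although by less than 1.5-fold under quantile normalization. Of the 10 progenitor markers examined, 9 reached the limit of 5 CPM; the exception, *PTF1A*, had a mean of 0.364 CPM at 0 h. Some markers of neighbouring lineages were also present at 0 h. All 6 hepatic markers reached the limit, from a mean of 15.5 CPM (*ALB*) to 1319 CPM (*AFP*). Of the 6 intestinal markers *VIL1* was at 232 CPM and *CDX2* at 193 CPM, whereas *LGALS4*, *CDX1*, *FABP2* and *MUC2* were between 0.170 and 3.97 CPM. Of 7 mesenchymal markers 4 reached the limit: *COL1A2* (66.7 CPM), *COL3A1* (61.6 CPM), *COL1A1* (14.8 CPM) and *PDGFRB* (11.5 CPM). Of 4 endothelial markers 1 did, *PECAM1* (6.19 CPM). Endocrine markers were at or below 2.28 CPM (6 of 6), *NANOG* and the blood cell marker *PTPRC* were at 0, and *POU5F1* had a mean of 0.0155 CPM. Of the other pluripotent cell markers *DPPA4* was at 3.51 CPM, but *LIN28A* was at a mean of 238 CPM at 0 h and 231 CPM at 1 h. These are bulk libraries, in which fewer cells of a type and less RNA per cell cannot be told apart. The *p*-values measure the spread between the libraries, and the labels do not state whether these were separate cultures. With 2 libraries against 2, an exact permutation test of a single gene cannot give a two-sided *p* below 0.33.

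In the first hour 2059 of the 10750 genes (19.2%) fell and 141 (1.31%) rose, at a Benjamini-Hochberg adjusted *p* below 0.05 in limma and a change over 1.5-fold; 8550 genes passed in neither direction. Of the genes that fell, 880 fell more than 2-fold, 129 more than 4-fold and 15 more than 8-fold. Of those that rose, 10 rose more than 2-fold. The transcripts that fell held 8.93% of the library total at 0 h and 4.50% at 1 h, whereas those that rose went from 0.836% to 1.57%. Both 1 h libraries lay below both 0 h libraries in 5363 genes (49.9%) and above them in 2317 genes (21.6%), and this held for 2052 of the 2059 genes that fell and 139 of the 141 that rose. The median log2 change of all genes was -0.15, and it was -0.15 and -0.17 when libraries were matched by replicate number. The sizes of these counts and the sign of the median depend on the scaling: with median-of-ratios scaling the median of all genes was 0.02, and 1389 genes fell and 595 rose (70.0% of calls lower, against 93.6% on the CPM scale). With quantile normalization 1159 fell and 878 rose. Changes below are on the log2(CPM + 0.1) scale and are best read against the median of -0.15. Because the limit of 5 CPM was set on the mean of all 4 libraries, 366 genes passed it only through the 0 h libraries and 72 only through the 1 h libraries. Among genes named below, those with a mean under 5 CPM at 0 h or at 1 h in A5-KO PPs are of this kind. With at least 5 CPM required at each time, 1774 of 10312 genes fell and 117 rose.

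**Figure D1:**
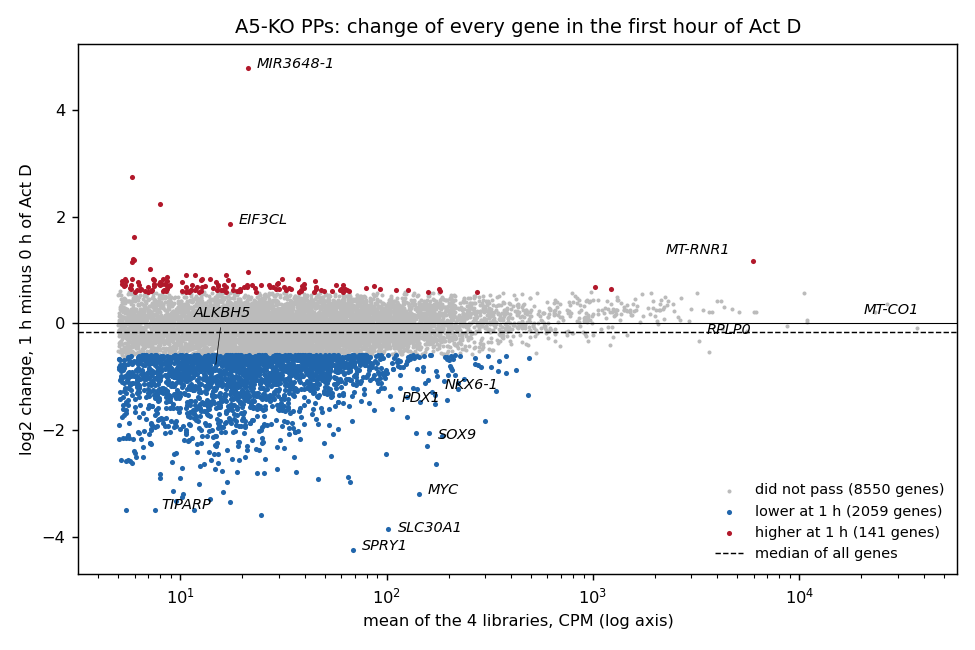
Each point is 1 of the 10750 genes, with its mean CPM over the 4 A5-KO libraries (log axis) against its log2 change in the first hour of Act D; blue, 2059 genes that fell; red, 141 that rose; dashed line, median of all genes (-0.15). The falls reach below -4 (*SPRY1*), whereas almost all rises stay below 1, and the most abundant mRNAs lie close to 0.

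Falls were ranked among genes with at least 20 CPM at 0 h and no overlap between the 2 times. The 10 largest were those of *SPRY1*, *SLC30A1*, *EPC1*, *ZNF367*, *TIPARP*, *TRIB1*, *MYC*, *LCMT2*, *EGR1* and *C15orf39*, with log2 changes from -4.25 to -2.97. Their lack of overlap was thus set by this choice. *EPC1*, *ZNF367*, *TIPARP*, *TRIB1*, *LCMT2* and *EGR1* were below 5 CPM in both 1 h libraries. These passed the limit of 5 CPM only through the 0 h libraries. *SPRY1* (chromosome 4, 123396795 to 123403760, plus strand), a feedback inhibitor of growth factor signalling, was at 150.0 and 110.2 CPM at 0 h and 8.05 and 5.49 CPM at 1 h (log2 change -4.25 ± 0.16 (s.e.), limma adjusted *p* = 2.3e-47). *SLC30A1*, which encodes a zinc exporter of the cell surface, was at 223 and 159 CPM at 0 h and 14.3 and 11.8 CPM at 1 h (log2 change -3.85 ± 0.14 (s.e.), limma adjusted *p* = 1.5e-47). *MYC*, the growth-promoting transcription factor, was at 302 and 215 CPM at 0 h and 26.98 and 28.2 CPM at 1 h, a log2 change of -3.20 (limma adjusted *p* = 1.3e-43). In each of these 3 genes both 1 h libraries lay far below both 0 h libraries. *EPC1*, a component of the NuA4 histone acetyltransferase complex, was at 52.3 and 38.7 CPM at 0 h and 3.48 and 3.77 CPM at 1 h. *TIPARP*, a mono-ADP-ribosyltransferase induced by the aryl hydrocarbon receptor, was at 37.2 and 26.6 CPM at 0 h and 2.82 and 3.16 CPM at 1 h. *EGR1*, an immediate early zinc-finger factor, was at 22.8 and 21.1 CPM at 0 h and 2.91 and 2.40 CPM at 1 h. The times did not overlap in any of these 3, as the choice of genes required. *TRIB1*, a pseudokinase that recruits ubiquitin ligase to its targets, was at 29.1 and 21.5 CPM at 0 h and 3.19 and 1.87 CPM at 1 h. *ZNF367* went from 23.7 and 19.4 to 2.16 and 1.52 CPM, *LCMT2*, a tRNA-modifying enzyme, from 33.1 and 25.3 to 3.34 and 2.98 CPM, and *C15orf39* from 139 and 97.4 to 14.5 and 14.9 CPM. At 0 h the first replicate was the higher one in all 10 genes. By the choice of genes, no 1 h value reached either 0 h value in any of them.

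**Figure D2:**
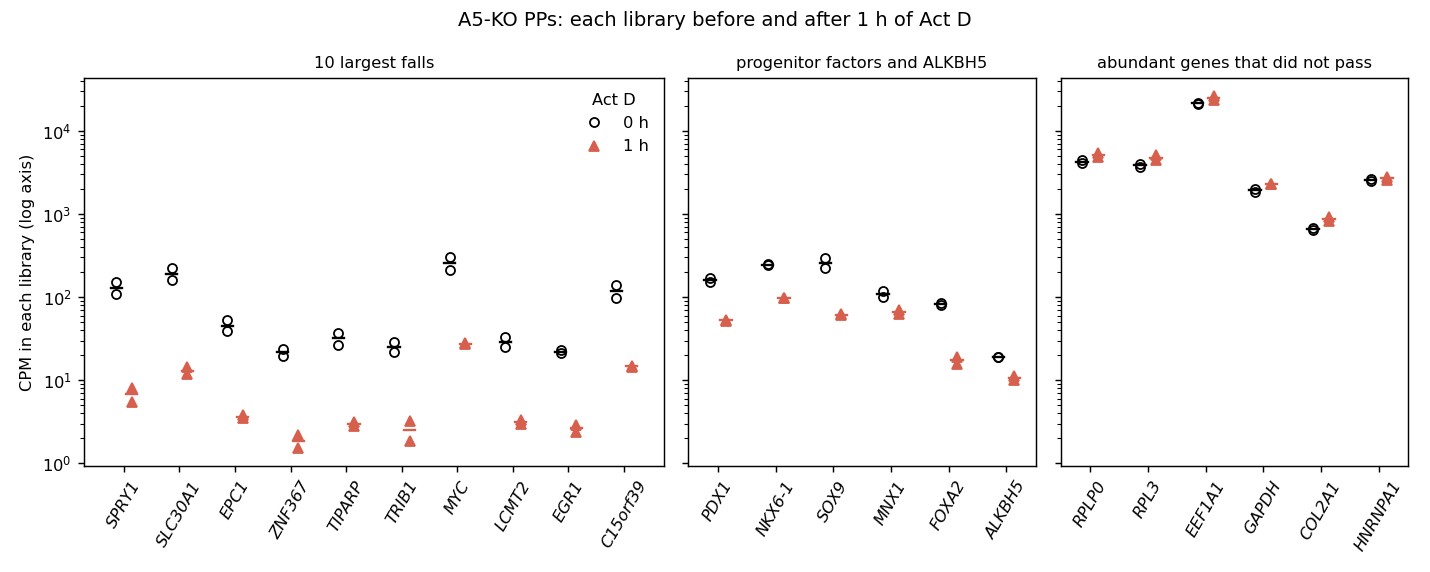
CPM of each A5-KO library (log axis) at 0 h (open circles) and after 1 h of Act D (triangles) for the 10 largest falls, 5 progenitor factors with *ALKBH5*, and 6 abundant genes that passed in neither direction; horizontal bars are group means. In the first 2 panels the 2 times do not overlap (a condition for choosing the genes of the first panel), and in the third the 1 h values lie on or just above those at 0 h.

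The 3′ UTRs of these genes illustrate the pentamer that recurs among unstable mRNAs. The windows below, 30 bases each, are those of a few genes on which the results turn, cut from the canonical transcripts of GENCODE release 44 on GRCh38 around the densest run of ATTTA, on the transcript strand and with T for U. Capitals mark ATTTA, copies of which may overlap by one base. The first 5 belong to genes among the largest falls and the next 2 to progenitor factors that fell; the last belongs to *AREG*, an epidermal growth factor receptor ligand that rose (14.6 and 14.97 CPM at 0 h and 20.4 and 25.1 CPM at 1 h), though not without A5-KO 1 h replicate 2.
TIPARP (+ strand, chr3:156705514-156705543): gaggattctATTTATTTATTTAcgtttgat
LCMT2 (- strand, chr15:43327803-43327832): ggttccatATTTATTTAgATTTAtaagtgt
SLC30A1 (- strand, chr1:211573055-211573084): tttgtATTTAaatattgtaggATTTAagtg
ZNF367 (- strand, chr9:96386161-96386190): tcacaactATTTAgaaacATTTAaaatgtt
SPRY1 (+ strand, chr4:123402877-123402906): ccagactacagtgATTTAgagttgttttga
SOX9 (+ strand, chr17:72124526-72124555): cttccttaaagacATTTAagctaaaggcaa
NKX6-1 (- strand, chr4:84492336-84492365): tgttgctATTTAttagtgATTTAaagaaaa
AREG (+ strand, chr4:74454937-74454966): gtaaataATTTATTTAatATTTAatggaag
The whole 3′ UTR held 17 copies in *SLC30A1*, 11 in *ZNF367*, 10 in *TIPARP*, 8 in *LCMT2*, 8 in *SOX9*, 6 in *NKX6-1*, 4 in *SPRY1* and 4 in *AREG*. *EPC1*, *EGR1* and *C15orf39* held 1 copy each, so the largest falls did not all carry a long run. At least 1 copy was present in 75.01% of the 10302 protein-coding genes with a 3′ UTR, so a match is common and describes these sequences only.

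Feedback inhibitors and inducible transcription factors had high shares of members that fell, against the 19.2% of all genes. All 5 suppressors of cytokine signalling that reached the limit fell (median log2 change -1.76): *SOCS1* (-2.73), *SOCS3* (-1.76), *SOCS4* (-1.42), *SOCS5* (-1.72) and *SOCS6* (-1.85). *SOCS1* was at 24.7 and 26.4 CPM at 0 h and 4.08 and 3.45 CPM at 1 h. Of 13 Sprouty genes, dual-specificity phosphatases and other feedback targets of the ERK pathway, 11 fell (median -1.23). *SPRY2* went from 343 and 256 to 47.7 and 47.3 CPM, and *DUSP6*, a phosphatase of ERK, from 261 and 187 to 50.6 and 56.1 CPM. *DUSP5*, the most abundant of the group by mean CPM, fell less, with 805 and 592 CPM at 0 h and 262 and 284 CPM at 1 h. The 2 members that passed in neither direction, *ETV4* and *ETV5*, encode ERK-induced transcription factors; *ETV4* was at 144 and 143 CPM at 0 h and 162 and 167 CPM at 1 h. Of 15 BMP and TGF-β response genes 13 fell (median -0.97), among them the inhibitory SMAD *SMAD7* (-2.90), the decoy receptor *BAMBI* (-1.998) and the 4 *ID* genes from *ID4* (-1.89) to *ID2* (-0.67). *ID2* stayed within 1.5-fold under median-of-ratios scaling (-0.49). *ID1*, a dominant inhibitor of helix-loop-helix factors, was at 229 and 240.0 CPM at 0 h and 86.6 and 106 CPM at 1 h.

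Of the 21 immediate early factors that reached the limit, 15 fell and none rose (median -1.10), including *CSRNP1* (-3.50), *MYCN* (-2.56), *FOSL2* (-2.25), *JUN* (-1.87) and *FOS* (-1.54). The AP-1 subunit *JUND* was at 204 and 241 CPM at 0 h and 167 and 187 CPM at 1 h and the serum response factor *SRF* at 87.5 and 88.9 CPM at 0 h and 65.3 and 61.2 CPM at 1 h, and neither passed the test. Of 10 *KLF* genes 9 fell (median -1.23). *KLF5*, the most abundant of them, went from 535 and 400.1 to 135 and 124 CPM, and *KLF6* from 67.9 and 51.6 to 18.5 and 16.4 CPM. In both, the 1 h libraries lay well below the 0 h libraries.

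The transcription factors that define the progenitor state fell with few exceptions. Of 27 pancreatic progenitor transcription factors tested, 23 fell and none rose (median -1.04), whereas 19.2% of all genes fell. *PDX1*, the master regulator of pancreas formation (chromosome 13, 27920000 to 27926313, plus strand), was at 168 and 153 CPM at 0 h and 53.3 and 51.4 CPM at 1 h (log2 change -1.61 ± 0.13 (s.e.), limma adjusted *p* = 1.8e-21). *NKX6-1*, which marks progenitors competent to form β cells (chromosome 4, 84491985 to 84499292, minus strand), was at 253 and 241 CPM at 0 h and 97.6 and 97.2 CPM at 1 h (log2 change -1.34 ± 0.12 (s.e.), limma adjusted *p* = 4.4e-18). *SOX9*, required to maintain progenitors (chromosome 17, 72121020 to 72126416, plus strand), was at 292 and 227 CPM at 0 h and 62.5 and 60.3 CPM at 1 h (log2 change -2.07 ± 0.12 (s.e.), limma adjusted *p* = 1.6e-29). The log2 change of *SOX9* was the largest of the 3, and both 1 h libraries lay below both 0 h libraries in all 3 genes. *MNX1*, a homeobox factor of the pancreatic bud (chromosome 7, 156994051 to 157010663, minus strand), fell less, with 99.9 and 117 CPM at 0 h and 70.2 and 62.96 CPM at 1 h (log2 change -0.70 ± 0.13 (s.e.), limma adjusted *p* = 3.1e-06), and it stayed within 1.5-fold under median-of-ratios scaling (log2 change -0.52). *FOXA2*, a pioneer factor of endoderm, was at 84.03 and 79.3 CPM at 0 h and 19.01 and 15.5 CPM at 1 h, and *HES1*, the Notch effector, at 66.6 and 60.01 CPM at 0 h and 8.57 and 9.47 CPM at 1 h. Both fell more than 4-fold (-2.24 and -2.80), with no overlap between the times. *GATA6* (-1.50), *PROX1* (-1.74) and *GATA4* (-0.87) fell as well. *HNF4A* stood apart from these: this nuclear receptor of gut and liver endoderm was at 138 and 126 CPM at 0 h and 129 and 111 CPM at 1 h and passed in neither direction, as did *ONECUT1* (7.23 and 5.33 CPM at 0 h and 5.41 and 5.05 CPM at 1 h), which was near the limit of expression.

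Other families of transcription factors also held many genes that fell, against the 19.2% of all genes. Of 260 zinc-finger genes named ZNF, 179 fell (median -0.99) and 1 rose, *ZNF580* (0.63). *ZNF580* stayed within 1.5-fold without A5-KO 0 h replicate 1 (0.53) or A5-KO 1 h replicate 2 (0.57). *ZNF574* went from 45.8 and 36.9 to 5.95 and 5.55 CPM and *ZNF689* from 51.3 and 37.96 to 5.84 and 6.63 CPM. Of 31 *ZBTB* genes 24 fell (median -0.98), and of 19 forkhead genes 12 fell (median -1.05), with *FOXD2* (-2.45) the largest change among those above 20 CPM. *FOXM1*, *FOXP4* and *FOXK2*, the 3 most abundant forkhead genes, passed in neither direction; *FOXM1*, a regulator of mitotic genes, was at 56.3 and 54.3 CPM at 0 h and 64.2 and 49.9 CPM at 1 h. Of 7 *SOX* genes 5 fell (median -1.04), led by *SOX4* with 341 and 259.5 CPM at 0 h and 71.8 and 66.2 CPM at 1 h. Of 10 clock genes 6 fell (median -0.97), among them the repressor *PER2* (-1.88), whereas the kinase gene *CSNK1E* was at 57.1 and 55.3 CPM at 0 h and 53.4 and 52.1 CPM at 1 h. The HOX list held a single gene above the limit, *HOXB3* (-0.16, not past the test).

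Lists of signalling pathways held both genes that fell and genes that did not pass. In the Notch list 3 of 14 genes (21.4%, against 19.2% of all genes) fell, the effectors *HES1* (-2.80), *HEY1* (-0.73) and *RBPJ* (-0.60), and 1 rose, the ligand gene *DLL3* (0.61). *HEY1* (-0.56) and *RBPJ* (-0.42) stayed within 1.5-fold under median-of-ratios scaling, and *DLL3* lost its call without A5-KO 0 h replicate 1 or A5-KO 1 h replicate 1. *NOTCH2* was at 415 and 368 CPM at 0 h and 380.1 and 251 CPM at 1 h and did not pass. Of 16 YAP and TEAD targets 8 fell, led above 20 CPM by *AMOTL2* (-1.84) and *ANKRD1* (-1.43), whereas *YAP1* itself was at 201 and 185 CPM at 0 h and 179 and 151 CPM at 1 h and did not pass. Of 28 p53 pathway genes 12 fell, including the nuclease gene *AEN* (-2.89), the phosphatase gene *PPM1D* (-2.22), *PLK2* (-1.67) and *MDM2* (-1.11). *CDKN1A*, the cell cycle inhibitor p21, was at 162 and 151 CPM at 0 h and 98.9 and 94.6 CPM at 1 h and fell by 0.69 on the log2 scale, though by less than 1.5-fold under median-of-ratios scaling. *GADD45B* rose (2.998 and 4.25 CPM at 0 h and 7.65 and 8.94 CPM at 1 h), and it passed the limit of 5 CPM only through the 1 h libraries. Of 12 NF-κB response genes 3 fell: *NFKBIA* (-1.70), *NFKBIZ* (-1.68) and *BIRC2* (-0.61), the last by less than 1.5-fold under median-of-ratios scaling (-0.43). Of 5 Wnt feedback genes 3 fell: *ZNRF3* (-1.27), *FZD7* (-0.66) and *LGR4* (-0.60), of which *FZD7* (-0.48) and *LGR4* (-0.42) stayed within 1.5-fold under median-of-ratios scaling. In the retinoic acid list 2 of 10 fell (20.0%, near the share of all genes), the degrading enzyme *CYP26B1* (-0.78) and the receptor *RARA* (-0.70). Under quantile normalization both stayed within 1.5-fold (-0.55 and -0.35), and *RARA* did so under median-of-ratios scaling too (-0.52). The medians of the NF-κB and retinoic acid lists (-0.08 and -0.02) changed sign with the scaling, whereas that of the p53 list was -0.34.

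Lists of the m6A and mRNA decay machinery held varying shares of genes that fell, to be read against the 19.2% of all genes. Among all genes of 20 to 50 CPM, 20.6% fell. Of 9 m6A writer genes 7 fell and none rose (median -0.76). Of these, *VIRMA* (-0.53) and *RBM15B* (-0.58) stayed within 1.5-fold under median-of-ratios scaling, and *METTL14* (-0.52) did so under quantile normalization. *RBM15*, which recruits the methyltransferase to RNA, was at 34.3 and 26.7 CPM at 0 h and 6.44 and 4.003 CPM at 1 h, and *CBLL1* went from 28.7 and 22.5 to 6.82 and 6.31 CPM. Of the catalytic core, *METTL14* fell (36.6 and 37.1 CPM at 0 h and 21.6 and 20.5 CPM at 1 h). *METTL3* was at 60.9 and 58.02 CPM at 0 h and 53.2 and 48.1 CPM at 1 h and did not pass. The difference between these 2 subunits was not tested. Of 8 m6A readers, *YTHDF2* (-1.37), *YTHDF1* (-1.03) and *YTHDF3* (-0.94) fell; *YTHDF2* was at 165 and 136 CPM at 0 h and 55.4 and 60.7 CPM at 1 h. *IGF2BP1* and *IGF2BP2*, readers that stabilise their targets, passed in neither direction (-0.37 and -0.11). The second m6A eraser, *FTO*, was at 34.5 and 29.1 CPM at 0 h and 26.1 and 18.8 CPM at 1 h and did not pass. Among 11 genes for proteins that bind AU-rich and related elements 6 fell, including the decay activators *ZFP36L2* (-2.30), *ZFP36L1* (-1.06) and *ZFP36* (-0.97). *ELAVL1*, a stabiliser, was at 141 and 149 CPM at 0 h and 135 and 135 CPM at 1 h and did not pass. Of 32 genes of the cytoplasmic decay machinery 12 fell (median -0.45), with *TOB2* (-1.30), *BTG1* (-1.28) and *DDX6* (-1.12) the largest above 20 CPM. *CNOT1*, the scaffold of the deadenylase, was at 216 and 179 CPM at 0 h and 161 and 116 CPM at 1 h and stayed within 1.5-fold. Of 15 SR splicing factors and CLK kinases 8 fell: *CLK1* went from 66.6 and 48.9 to 12.8 and 14.9 CPM and *SRSF3* from 560.3 and 534 to 276 and 318 CPM. Of 22 hnRNP genes only *HNRNPDL* fell (-0.82).

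Few transcripts of the translation apparatus and of metabolism passed the test. On the CPM scale none of the 77 cytosolic ribosomal protein genes passed in either direction, 75 of them were above 0, and their median log2 change was 0.27. Their median was 0.45 under median-of-ratios scaling and 0.11 under quantile normalization, where the medians of all genes were 0.02 and 0.06. Together the ribosomal protein genes went from 9.63% to 12.0% of the library total. *RPLP0* (chromosome 12, 120196699 to 120201235, minus strand) was at 4078 and 4472 CPM at 0 h and 4916 and 5396 CPM at 1 h (log2 change 0.27, limma adjusted *p* = 0.087). The 1 h libraries lay above the 0 h libraries, but by less than 1.5-fold. The translation factor list was drawn up by gene name and also holds other genes, such as the kinase gene *EIF2AK3*. Of its 54 genes tested, *EIF1AD* (-1.48), *EIF5* (-0.84) and *EIF2AK3* (-0.76) fell and *EIF3CL*, described below, rose. *EIF2AK3* stayed within 1.5-fold under median-of-ratios scaling (-0.58) and quantile normalization (-0.47). *EEF1A1* was at 21182 and 21928 CPM at 0 h and 23454 and 26415 CPM at 1 h. None of 68 nuclear-encoded respiratory chain genes passed (median 0.17, above 0 under all 3 scalings). Among 24 glycolysis genes, none fell and *CA9*, a hypoxia-induced carbonic anhydrase placed in this list, rose; *GAPDH* was at 1865 and 2009 CPM at 0 h and 2292 and 2308 CPM at 1 h. Of 26 collagen genes none passed (median 0.26), and *COL2A1* was at 646 and 683 CPM at 0 h and 912 and 835 CPM at 1 h.

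Among 18 plasma protein genes the median was 0.27, yet the fibrinogen chains *FGA* (-2.04) and *FGG* (-0.79) fell and *APOE* rose (779 and 1134 CPM at 0 h and 1363 and 1599.9 CPM at 1 h). *FGG* passed neither under median-of-ratios scaling nor under quantile normalization (-0.61 and -0.47), nor without A5-KO 0 h replicate 1 or A5-KO 1 h replicate 1. *APOE* did not pass under quantile normalization (0.46), nor without A5-KO 0 h replicate 1 (0.38) or A5-KO 1 h replicate 2 (0.54). *AFP*, the fetal plasma protein, was at 1343 and 1294 CPM at 0 h and 1311 and 1445 CPM at 1 h. Among 8 genes of the insulin-like growth factor axis, the carriers *IGFBP2* (0.67) and *IGFBP6* (0.67) rose, though not without A5-KO 0 h replicate 1 or A5-KO 1 h replicate 2, and *IGFBP2* not under quantile normalization (0.48). *IGF2* itself was at 1365 and 1647 CPM at 0 h and 2023 and 830.2 CPM at 1 h, so its 1 h libraries lay on either side of those at 0 h. Of 31 proteasome genes 1 fell, *PSMD12* (-0.76). Of 69 mitochondrial ribosomal protein genes 1 fell, *MRPL50* (-0.64), and 1 rose, *MRPS26* (0.60). *PSMD12* and *MRPL50* stayed within 1.5-fold under median-of-ratios scaling (-0.58 and -0.46), and *MRPS26* did so without A5-KO 0 h replicate 1 (0.48) or A5-KO 1 h replicate 2 (0.47). None of 16 CCT chaperonin and tubulin genes and none of the 12 mitochondrially encoded mRNAs passed; *MT-CO1* was at 38954 and 38193 CPM at 0 h and 38146 and 34284 CPM at 1 h. The medians of the translation factor, mitochondrial ribosomal protein, chaperonin, hnRNP and mitochondrially encoded lists lay between -0.11 and 0.00 and changed sign under at least 1 other scaling, so no direction is given for them. Of 7 replication-dependent histone genes none passed.

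The remaining functional lists were mixed. Of 45 cell cycle genes 9 fell (20.0%, near the 19.2% of all genes), including the mitotic kinases *PLK4* (-1.21) and *AURKA* (-1.12) and the cyclin *CCNF* (-0.98), whereas *CCND1* was at 1116 and 1141 CPM at 0 h and 1123 and 977 CPM at 1 h and did not pass. Of 20 unfolded protein response genes 6 fell, among them *XBP1* (-1.06), *PPP1R15A* (-1.11) and *DNAJB9* (-1.08). The chaperone *HSPA5* was at 935 and 931 CPM at 0 h and 907 and 984 CPM at 1 h and did not pass. Of 19 sterol and fatty acid synthesis genes 6 fell, including *INSIG1* (-1.22), a sensor of sterols; *FASN* was at 886 and 991 CPM at 0 h and 1194 and 933 CPM at 1 h. Of 32 histone methyltransferase and demethylase genes 14 fell, with *KMT5B* (-1.65), *KDM2A* (-1.32) and *KMT2C* (-1.20) the largest above 20 CPM, and *KDM1A* was at 278 and 283 CPM at 0 h and 283 and 285 CPM at 1 h. Of 43 F-box genes 15 fell and 3 rose, and of 28 Kelch and BTB adaptor genes 15 fell. *FBXO34* went from 29.98 and 22.7 to 4.57 and 3.74 CPM, while *FBXO7* was at 91.5 and 91.6 CPM at 0 h and 87.2 and 88.99 CPM at 1 h.

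**Figure D3:**
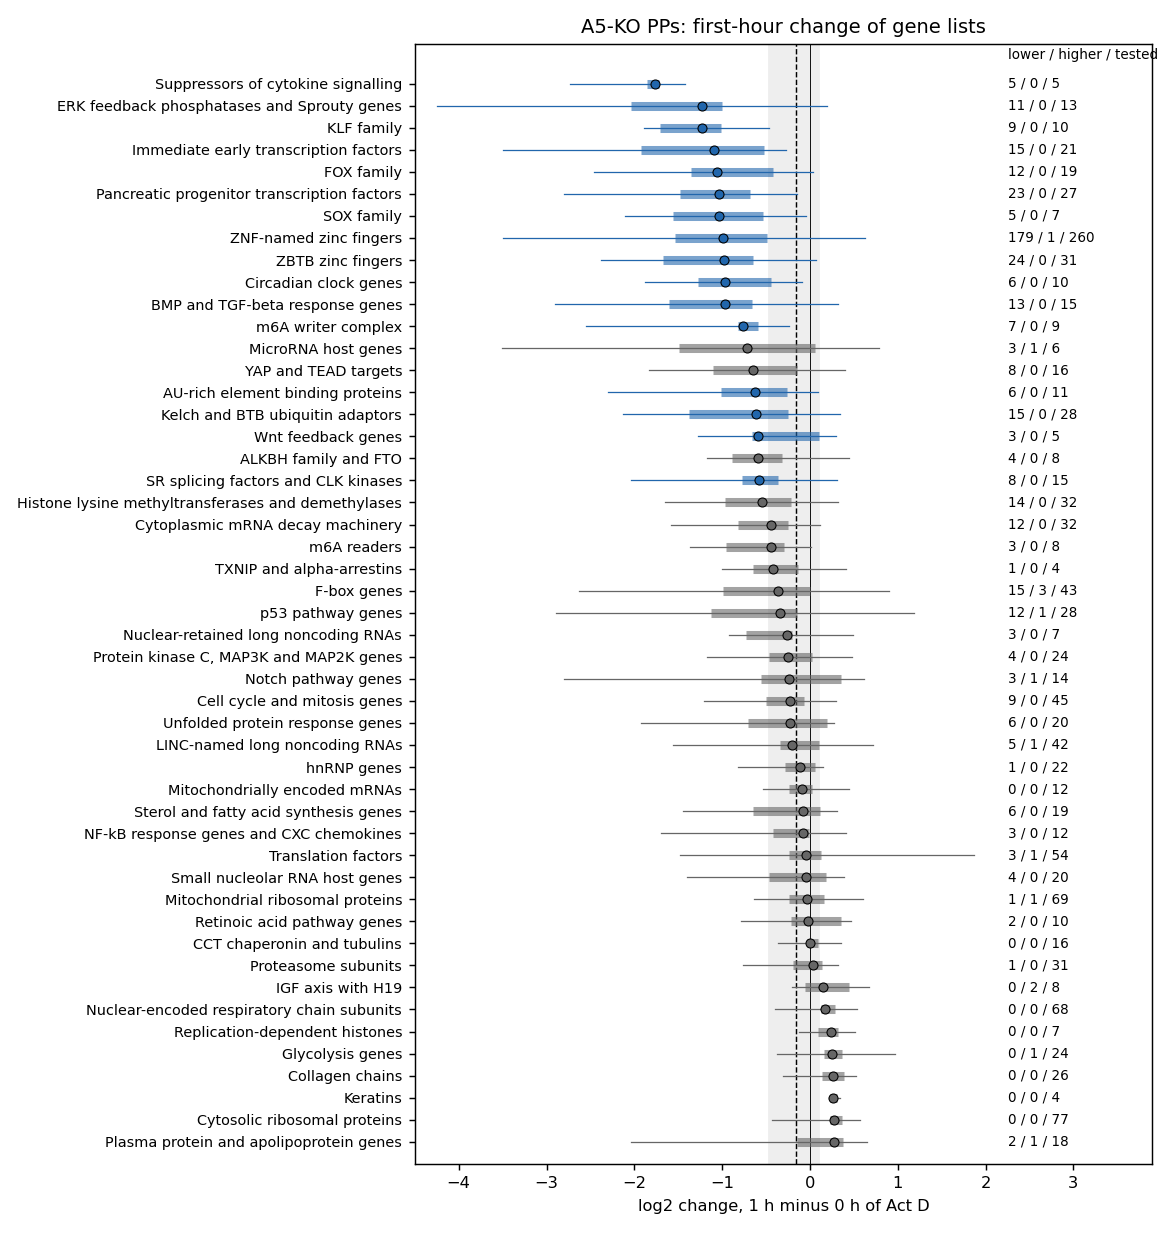
Log2 change in the first hour of Act D for gene lists with at least 4 tested members: dot, median; thick bar, 25th to 75th percentile; thin line, range; blue, lists of which more than 50% of tested members fell. The grey band and dashed line give the 25th to 75th percentile (-0.46 to 0.11) and median (-0.15) of all 10750 genes; suppressors of cytokine signalling lie lowest, and ribosomal proteins and plasma proteins highest.

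Noncoding transcripts were spread over the same range. Of 219 long noncoding RNA genes 36 (16.4%) fell and 4 rose, against 19.5% and 1.28% of 10302 protein-coding genes with a 3′ UTR. *MIR17HG*, the host of the miR-17 cluster, went from 15.5 and 12.3 to 0.863 and 1.46 CPM, and *MIR34AHG* (-1.56) and *MIR503HG* (-1.31) also fell, whereas *MIR210HG*, induced by hypoxia, rose (6.37 and 6.18 CPM at 0 h and 9.26 and 12.8 CPM at 1 h), though not without A5-KO 1 h replicate 2. Of 20 small nucleolar RNA host genes 4 fell (20.0%, near the 19.2% of all genes), *SNHG15* (-1.40), *SNHG17* (-1.21), *SNHG12* (-1.10) and *SNHG10* (-0.94), the last not without A5-KO 0 h replicate 1; *GAS5* was at 323 and 347 CPM at 0 h and 338 and 412 CPM at 1 h and did not pass. *NORAD*, a sponge for Pumilio proteins, was at 382 and 319 CPM at 0 h and 226 and 184 CPM at 1 h and fell, and the nuclear RNA *MALAT1* was at 49.3 and 49.4 CPM at 0 h and 50.4 and 33.4 CPM at 1 h and did not pass. Of 118 processed pseudogenes 4 fell (3.39%). These are intronless copies that share reads with their parent genes, so their values are uncertain.

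The largest rises were fewer and smaller, and several rest on uncertain assignment of reads. *MIR3648-1* (chromosome 21, 8208473 to 8208652, plus strand) was at 1.08 and 1.79 CPM at 0 h and 39.7 and 42.7 CPM at 1 h, a log2 change of 4.79 (limma adjusted *p* = 6.6e-38). This microRNA gene lies within ribosomal DNA repeats, of which many copies exist, so its reads cannot be assigned to one place. *MT-RNR1*, the small mitochondrial ribosomal RNA, was at 3384 and 3958 CPM at 0 h and 7949 and 8473 CPM at 1 h (log2 change 1.16 ± 0.13 (s.e.), limma adjusted *p* = 4.6e-13). The large one, *MT-RNR2*, was at 23152 and 23426 CPM at 0 h and 30384 and 29189 CPM at 1 h. *EIF3CL* was at 5.04 and 5.15 CPM at 0 h and 6.73 and 52.6 CPM at 1 h, so its call rests on 1 library. *EIF3C*, its near-identical copy, was at 17.4 and 31.04 CPM at 0 h and 30.5 and 22.96 CPM at 1 h and did not pass. Rises were ranked among genes that reached 20 CPM and did not overlap between the times. The other genes of the 10 largest were *CA9*, *TFF3*, *PLPPR3*, *ST14*, *IDUA*, *TGFB1* and *NPDC1*, with log2 changes from 0.97 to 0.76. Larger rises of genes below 20 CPM, such as that of *GADD45B* (log2 change 1.19), were left out by this limit. *TFF3*, a secreted trefoil peptide of mucous epithelia, was at 10.01 and 13.1 CPM at 0 h and 20.6 and 22.8 CPM at 1 h, *ST14*, the epithelial protease matriptase, at 26.1 and 27.3 CPM at 0 h and 47.4 and 47.2 CPM at 1 h, and *TGFB1*, the growth factor, at 30.5 and 35.7 CPM at 0 h and 56.7 and 57.1 CPM at 1 h. In each of these 3 genes both 1 h libraries exceeded both 0 h libraries, as the choice of genes required. Of the 141 genes that rose, 132 were protein-coding with a 3′ UTR, and they were short and rich in G and C, with a median 3′ UTR of 346.5 bases and a median GC content of 63.3%, against 1430.5 bases and 47.6% of all protein-coding genes.

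The first-hour change moved with the sequence of the transcript. The share of protein-coding genes that fell was 6.68% among 2574 genes with no ATTTA in the 3′ UTR, 12.5% with 1 copy, 18.4% with 2 to 3, 25.8% with 4 to 7, 32.5% with 8 to 15 and 36.4% among 719 genes with 16 or more. The median log2 change went from 0.13 to -0.43 over the same bins, and from 0.12 to -0.08 when changes were centred within bins of GC content, a setting chosen after the data were seen. In WT PPs the median went from 0.005 to -0.27 over these bins, without centring. At least 1 copy was present in 91.4% of the genes that fell, 28.03% of those that rose and 71.7% of those that did neither. The longer form TATTTAT, which contains ATTTA, was present in 55.4%, 11.4% and 33.3% of these genes. Genes with single exons fell most often (45.2% of 168), followed by those with 2 to 4 exons (31.5% of 1627). These bins are descriptions, because several features move together. Genes with 16 or more copies had a median 3′ UTR of 6236 bases, against 404 bases for those with none. The share that fell went from 6.15% among 3′ UTRs under 300 bases to 31.5% from 3000 bases, and from 29.8% of genes under 40% GC to 7.05% of those at 60% GC or more. Over all 10750 genes it was also lower among abundant ones, at 2.40% from 300 CPM against 29.2% from 10 to 20 CPM. Among 3′ UTRs of 1000 to 1999 bases, 9.04% fell with no copy and 30.5% with 6 or more; the median log2 changes of these bins were 0.03 and -0.35, and -0.01 and -0.05 when centred by GC. Among transcripts of 45 to 50% GC, 10.0% fell with no copy and 30.5% with 6 or more. From under 40% GC to 60% GC or more, the median log2 change went from -0.37 to 0.20 in A5-KO PPs. In WT PPs it went from -0.20 to -0.01. By replicate number, the A5-KO medians at 60% GC or more were 0.30 and 0.11. The difference between the genotypes along these features was not tested. GGACT, a common form of the m6A consensus, was counted on the transcript strand as well: the share that fell was 18.8% below 0.5 copies per kilobase of transcript, 22.3% from 0.5 to 1, 20.4% from 1 to 1.5, 16.9% from 1.5 to 2 and 10.0% from 2 copies. The median 3′ UTR was 2008 bases from 0.5 to 1 copies and 561.5 bases from 2 copies. GGACT was not examined within windows of length or GC content. The replicates also differed along these features: at 0 h the second replicate lay above the first by 0.07 (median log2 difference) in genes without ATTTA and below it, at -0.18, in those with 16 or more. The part of this in the results was not tested. With the changes centred by GC, 1376 genes fell and 144 rose. Of these, 1300 and 52 were among the genes called on the CPM scale.

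**Figure D4:**
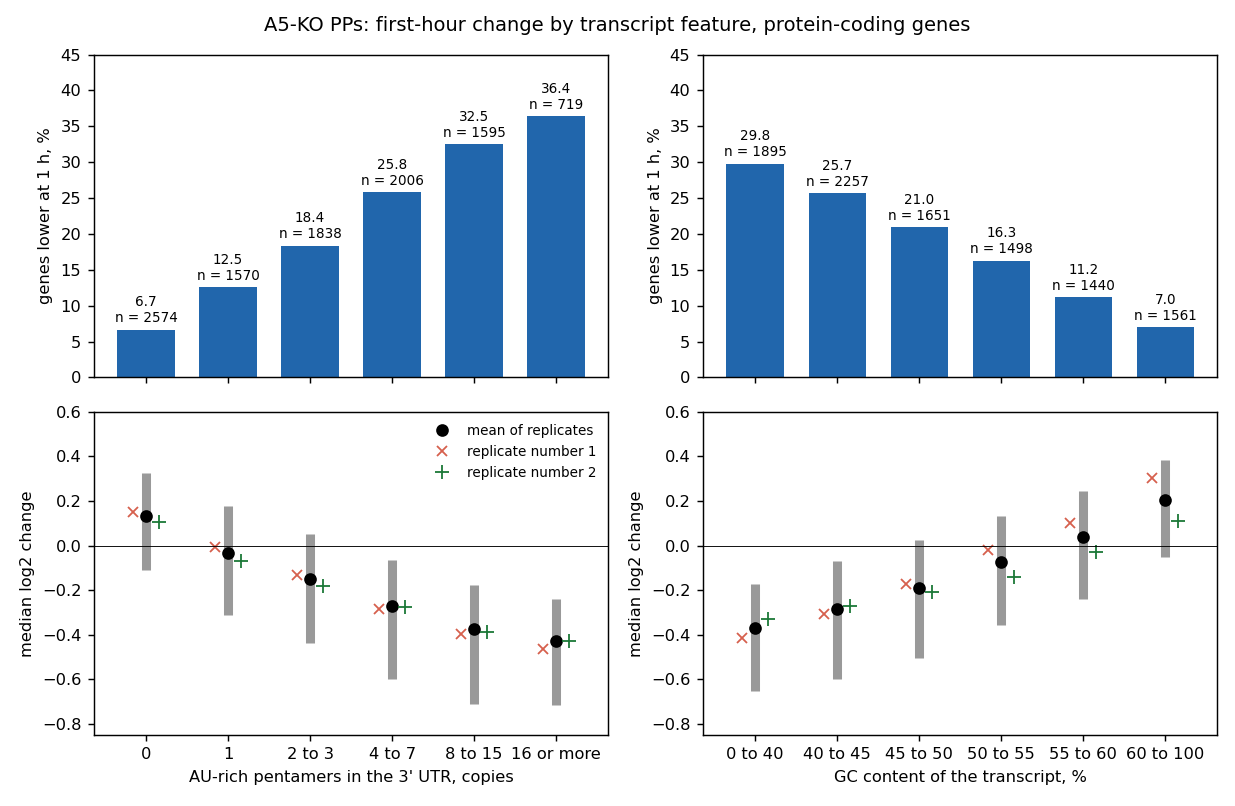
Protein-coding genes grouped by copies of the AU-rich pentamer in the 3′ UTR (left) and by GC content of the transcript (right): top, share of genes that fell in the first hour of Act D, with the number of genes; bottom, median log2 change of the group means (dots), the 25th to 75th percentile (bars) and the medians by replicate number (x and + marks). The share that fell goes from 6.68% to 36.4% with pentamer count and from 29.8% to 7.05% with GC content.

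In WT PPs the median log2 change of the same genes in the first hour was -0.12. Because each library is scaled to its own total, this median cannot show a difference in decay shared by most mRNAs. The test of single genes below has the same limit. With amounts set by spiked-in RNAs, the study reported lower mRNA stability across the transcriptome in A5-KO PPs. The test of the difference between the genotypes found 2 genes (0.0186%) with a steeper fall in A5-KO PPs and 48 (0.447%) with a shallower one. At an unadjusted *p* below 0.05 and the same fold limit, 85 genes were steeper and 243 shallower. None of the 10 largest falls, nor *PDX1*, *NKX6-1*, *SOX9* or *MNX1*, passed at the adjusted *p*. *ZNF367*, *SPRY1* and *TIPARP* were among the 85. The 10 largest falls were picked on the same A5-KO libraries, a choice that itself favours a steeper change in A5-KO PPs. *SPRY1* went from 159 and 118 to 10.8 and 12.5 CPM in WT PPs, and the log2 change in A5-KO PPs differed from that in WT PPs by -0.70 ± 0.27 (s.e., limma adjusted *p* = 0.34). For *PDX1* the difference was 0.30 ± 0.16, for *NKX6-1* 0.31 ± 0.15, for *SOX9* 0.02 ± 0.20 and for *MNX1* 0.25 ± 0.15 (s.e., limma adjusted *p* between 0.45 and 0.99). *ZNF367* differed by -1.26 ± 0.30 (s.e., limma adjusted *p* = 0.11). These differences did not pass the test, which does not show that the genotypes act alike.

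Of the 48 genes with the shallower fall, those named here beyond the largest differences were chosen after their values were seen, and no list was tested on them. The log2 change in WT PPs was below 0 in all 48 (median -0.53), and in A5-KO PPs it was above 0 in 44 (median 0.55). In A5-KO PPs 20 of the 48 passed as risen and 1, *SQSTM1*, as fallen. The fall of *SQSTM1* stayed within 1.5-fold under median-of-ratios scaling and under quantile normalization (-0.51 in both). *CDH1*, which encodes E-cadherin of adherens junctions, was at 125 and 127 CPM at 0 h and 199 and 180.4 CPM at 1 h in A5-KO PPs and at 120.1 and 129 CPM at 0 h and 100.5 and 102 CPM at 1 h in WT PPs (difference 0.89 ± 0.12, limma adjusted *p* = 0.0029). *CLDN4*, a tight junction claudin, was at 46.3 and 47.7 CPM at 0 h and 55.7 and 61.5 CPM at 1 h in A5-KO PPs and at 41.8 and 34.8 CPM at 0 h and 18.04 and 19.7 CPM at 1 h in WT PPs (difference 1.33, adjusted *p* = 0.002 in limma). *PRSS8*, the membrane protease prostasin, was at 34.1 and 36.5 CPM at 0 h and 54.4 and 55.98 CPM at 1 h in A5-KO PPs and at 37.3 and 36.1 CPM at 0 h and 21.7 and 23.1 CPM at 1 h in WT PPs. At 0 h the genotypes overlapped or lay close together in these 3 genes, and at 1 h both A5-KO libraries lay above both WT libraries. *ST14*, *CLDN7*, *MUC13*, *CEACAM5*, *RAB25*, *TFF3* and the keratins *KRT8*, *KRT18* and *KRT19* were also among the 48. *KRT8* was at 1903 and 2142 CPM at 0 h and 2450.4 and 2667 CPM at 1 h in A5-KO PPs and at 1969 and 2001 CPM at 0 h and 1648 and 1669.6 CPM at 1 h in WT PPs. *JUND* was the only gene of the immediate early list in the set, with 294 and 251 CPM at 0 h and 103 and 120.0 CPM at 1 h in WT PPs. With changes centred within GC bins 35 genes were shallower, 33 of them shared with the 48. The set shrank to between 16 and 35 genes without any 1 of the 4 WT libraries, A5-KO 0 h replicate 1 or A5-KO 1 h replicate 2, and was 57 without A5-KO 0 h replicate 2. Without A5-KO 1 h replicate 1 it was 93, and the steeper set then went from 2 to 92. The 2 genes with the steeper fall were *NOMO1* (7.08 and 17.3 CPM at 0 h and 2.27 and 2.16 CPM at 1 h in A5-KO PPs), which has near-identical copies, and the pseudogene *DHFRP1* (11.2 and 14.1 CPM at 0 h and 7.10 and 5.67 CPM at 1 h), so that reads of both may have been split with other genes.

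**Figure D5:**
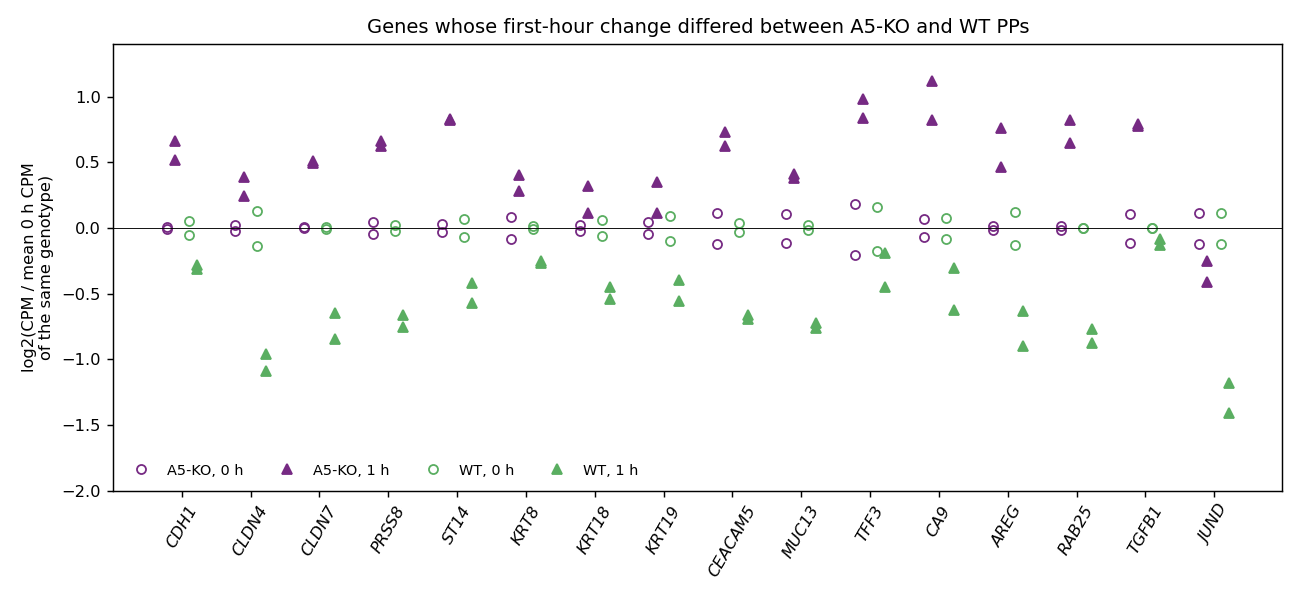
Log2 ratio of each library's CPM to the mean 0 h CPM of its own genotype, at 0 h (circles) and after 1 h of Act D (triangles), for 16 genes whose first-hour change differed between A5-KO PPs (purple) and WT PPs (green). In every gene both A5-KO values at 1 h lie above both WT values; apart from *JUND*, the A5-KO values lie above 0 and the WT values below it.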

How the data were processed

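Pancreatic progenitors of the WT and A5-KO genotypes were collected before and during exposure to Act D, and their RNA was sequenced. The authors trimmed reads with fastp, aligned them to hg38 with HISAT2 2.1.0 and deposited 1 table of CPM per library, from which spiked-in RNAs were removed; the study's methods name StringTie for values in another unit, and the counter and annotation behind the deposited CPM are not given in the sources used here. The deposited CPM were 100% whole multiples of the value of 1 read (tolerance 0.01 read), which gave each library's depth. Islet-like organoid libraries, deposited in another unit, were not used here.

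Genes whose mean over the 4 A5-KO libraries reached 5 CPM were tested with limma 3.58.1 (eBayes with trend, R 4.3.3) on log2(CPM + 0.1), without a replicate block. A call needed a change over 1.5-fold and an adjusted *p* (Benjamini-Hochberg) below 0.05. The same model over 8 libraries, with an interaction of genotype and time, tested the difference from WT PPs. Scripts were tested on simulated data. Replicates of each group differed by more than counting error (chi-square per degree of freedom of 21.2 at 0 h and 34.6 at 1 h). Alternatives included edgeR 4.0.16, which called 1442 genes lower and 520 higher on the recovered reads, and DESeq2 1.42.0. The genes named are the 10 largest falls and rises that did not overlap between times and reached 20 CPM. From each list they are the 4 most abundant members and the 3 largest calls that reached 20 CPM, and from the genotype comparison the 5 largest differences each way. Some genes that this rule picked are not reported here. *ALKBH5*, *PDX1*, *NKX6-1*, *SOX9* and *MNX1* were named in any case. Other genes, among them *SOCS3*, *GATA4*, *GATA6*, *METTL3*, *METTL14*, *FGA*, *GADD45B*, *CDH1* and *SQSTM1*, were chosen after their values were seen. The members and gene lists were chosen with earlier results of these data known. Gene names, 3′ UTRs and coordinates came from GENCODE release 44, which matched 60369 of the 60623 genes listed.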

Additional observations from a re-analysis of the deposited data

Results flagged for a closer look

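The first-hour change differed between the genotypes, by a test of the difference itself, in 2 genes with a steeper and 48 with a shallower fall in A5-KO PPs (limma interaction, adjusted *p* below 0.05 and over 1.5-fold). Shallower means only that the log2 change was higher in A5-KO PPs than in WT PPs. In 44 of the 48 genes the A5-KO change was above 0, so their share did not fall. Values here are the log2 change in A5-KO PPs minus that in WT PPs. Among genes of cell junctions, *CDH1* differed by 0.89, *CLDN7* by 1.24 and *CLDN4* by 1.33. The membrane proteases *ST14* and *PRSS8* differed by 1.32 and 1.35, and the surface and secreted proteins *MUC13*, *TFF3* and *CEACAM5* by 1.14, 1.23 and 1.35. The small GTPase gene *RAB25* differed by 1.54. The keratins *KRT8*, *KRT18* and *KRT19* differed by 0.60, 0.71 and 0.71. The growth factor genes *TGFB1* and *AREG* differed by 0.89 and 1.36, and the carbonic anhydrase gene *CA9* by 1.43. *JUND*, an AP-1 subunit, differed by 0.96. *SQSTM1*, the autophagy receptor p62, fell in A5-KO PPs (72.3 and 72.2 CPM at 0 h and 44.5 and 44.9 CPM at 1 h) and more so in WT PPs (112 and 115 CPM at 0 h and 42.6 and 45.1 CPM at 1 h), a difference of 0.68. Its fall in A5-KO PPs stayed within 1.5-fold under median-of-ratios scaling (-0.51). The largest difference among the shallower genes was that of *PUF60*, a splicing factor, at 2.39. It was at 2.66 and 2.67 CPM at 0 h and 16.5 and 10.1 CPM at 1 h in A5-KO PPs. In WT PPs it was at 12.9 and 23.9 CPM at 0 h and 18.6 and 13.5 CPM at 1 h, so the times overlapped there. The steeper genes were *NOMO1* at -3.21 and *DHFRP1* at -1.39, both of which have near-identical copies. *NOMO1* was at 1.58 and 2.51 CPM at 0 h and 2.77 and 5.50 CPM at 1 h in WT PPs.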

How the results depend on the processing

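The causes of the shifts below were not tested. Genes that fell numbered 1159 under quantile normalization and 3308 with no limit on fold, and between 1538 and 2398 when 1 library was left out. Genes that rose numbered 217 with a limit of 1 CPM, 87 with no filter, 595 with median-of-ratios scaling, 878 with quantile normalization, 520 in edgeR, 506 in DESeq2 and 816 with no limit on fold. They numbered between 71 and 342 when 1 library was left out (71 without A5-KO 0 h replicate 1, 342 without A5-KO 0 h replicate 2, 282 without A5-KO 1 h replicate 1). The median of all genes was -0.17 with no filter, 0.0249 with median-of-ratios scaling, 0.0598 with quantile normalization, 0.00898 in edgeR, 0.0115 in DESeq2 and 0.0127 centred within GC bins, and between -0.19 and -0.12 with 1 library left out. No gene called on the CPM scale was called in the other direction by median-of-ratios scaling, edgeR or GC centring.

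Steeper falls than in WT PPs numbered 0 with no filter (574 at an unadjusted *p* below 0.05 in limma), 1 with at least 5 CPM at each time, 4 under quantile normalization, 8 in DESeq2, 0 with all 16 PP libraries in one fit (68 unadjusted) and 85 at an unadjusted *p*. They numbered between 0 and 92 with 1 library left out, 92 without A5-KO 1 h replicate 1. Shallower falls numbered 12 with no filter, 111 in DESeq2, 31 with all 16 libraries and 243 unadjusted, and between 16 and 93 with 1 library left out (93 without A5-KO 1 h replicate 1, 21 without A5-KO 0 h replicate 1, and 19, 28, 16 and 16 without WT 0 h replicates 1 and 2 and WT 1 h replicates 1 and 2).

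The replicate numbers are not stated to pair cultures, and same-numbered libraries of the 4 groups deviated together weakly (*r* across genes from -0.117 to 0.217). Blocking on the replicate number, 2063 genes fell, 142 rose, 2 were steeper and 61 shallower, and all 2059 and 141 calls were shared. Over the refitted alternatives other than GC centring, values of 173 called genes named in this report or by its rule were compared. Of these values 2769 kept their direction and side of the threshold, 145 missed the threshold and none changed sign. A gene outside the filter of an alternative gave no value there. The medians of 16 of 50 gene lists changed sign under at least 1 alternative, with edgeR, DESeq2 and GC centring left out of this count. With 2 libraries per group, differences under 1.5-fold are limited by the spread between libraries more than by the depth.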

Other observations

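At 2 h and 3 h of Act D, times that the comparisons above do not use, A5-KO PPs held *SPRY1* at 4.58 and 5.24 CPM and then 3.72 and 3.41 CPM, and *MYC* at 8.26 and 6.46 CPM and then 7.44 and 4.33 CPM. *PDX1* was at 18.9 and 21.9 CPM at 2 h and 12.7 and 11.5 CPM at 3 h, and *SOX9* at 27.99 and 26.8 CPM and 16.8 and 15.97 CPM. *CDH1* was at 314 and 318 CPM at 2 h and 181 and 180.4 CPM at 3 h in A5-KO PPs, against 116 and 122 CPM and 153 and 148 CPM in WT PPs. *CEACAM5* was at 105 and 107 CPM and 44.03 and 43.6 CPM in A5-KO PPs, against 25.5 and 31.01 CPM and 34.7 and 36.9 CPM in WT PPs. *RPLP0* was at 5599 and 5693 CPM and 5731 and 5932 CPM in A5-KO PPs.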
